A study of Mus musculus with 6 samples.

Results

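The rows described here are the 18301 probe sets of a mouse Affymetrix array that carry no gene symbol in the platform annotation used here, out of 234873 probe sets in all (7.79%). They were chosen by that absence alone, and no measured value entered the choice. Another 212097 probe sets had exactly 1 symbol and 4475 had several. A row without a symbol is unnamed in this older annotation and is not shown to lack a gene. For the same reason it is called below only by its probe set number, and it has no genome position, strand or sequence here.

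Expression was measured in primary hepatocytes from adult C57BL/6 mice. In 1 group (miR-143DOX, 3 mice) the animals carried a doxycycline-inducible allele of the microRNA miR-143, and in the other (control, 3 mice) they were wildtype littermates. All 6 animals drank 4 mg/ml doxycycline in 10% sucrose for 8 days, so the control mice had the drug without the transgene. The liver was perfused with collagenase, the cells were frozen, and RNA of each mouse was read on 1 array. The promoter that drives the transgene and the level of miR-143 were not analysed here.

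An array of this kind reads a transcript through many probe sets, each a small group of oligonucleotides that bind 1 stretch of RNA, often an exon. A probe set's brightness depends on how well its oligonucleotides bind as well as on the amount of RNA, so levels of different probe sets are set side by side below only as distributions. MicroRNAs lower the level or the translation of the transcripts they pair with, and a target can be any messenger or long noncoding RNA, named or not. Rows without a symbol are usually dropped before such a comparison is read gene by gene.

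The cells had the transcripts of hepatocytes. The 8 hepatocyte markers had a median log2 level of 13.2, above 99.9% of genes with a symbol, and ran from 10.6 for Serpina1a to 14.4 for Alb, the albumin gene. Markers of Kupffer cells had a median of 7.87 (5 of 6 found), of sinusoidal endothelium 7.29 (5 of 5) and of stellate cells 6.76 (5 of 5). These medians lay above 80.5%, 71.5% and 61.9% of genes with a symbol. Those of cholangiocytes, 5.56 (4 of 4), and of lymphocytes and neutrophils, 4.45 (5 of 6), lay above 36.7% and 13.7%. The preparation is therefore not shown to be free of other liver cells. Across all rows the 6 arrays correlated pairwise at Pearson r of 0.936 to 0.954, and across the unnamed rows at 0.956 to 0.969.

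Unnamed probe sets were dimmer in the middle of their range and brighter at its top than probe sets with exactly 1 symbol. Their median level was 5.73 on the log2 scale, against 6.69 for rows with 1 symbol. Their lower and upper quartiles were 4.20 and 7.39, against 5.16 and 8.10. At the 95th percentile the order turned, with 10.54 for unnamed rows against 10.25, and at the 99th percentile the values were 13.2 and 12.1. Levels above 12 were found for 377 unnamed rows (2.06%) and for 1.11% of rows with 1 symbol, and levels below 3 for 1420 unnamed rows (7.76%) and 3.12%. Both ends of the scale therefore held a larger share of the unnamed rows.

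**Figure D1:**
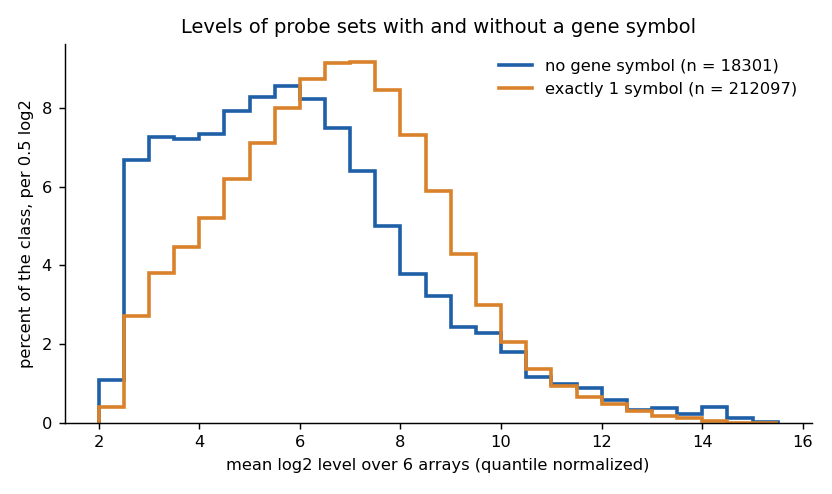
Percent of each class of probe sets (vertical axis) by mean log2 level over the 6 arrays in steps of 0.5 (horizontal axis), for probe sets without a gene symbol (blue) and with exactly 1 (orange). The blue outline lies to the left, with a median of 5.73 against 6.69, and lies above the orange one again from a level of 11 upward.

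The gap between the medians was much the same on every array. Unnamed rows had a median of 5.78, 5.79 and 5.71 on the arrays of miR-143DOX replicates 1, 2 and 3, and of 5.74, 5.82 and 5.79 on those of control replicates 1, 2 and 3. The groups overlapped. The median of the unnamed rows lay below that of rows with 1 symbol by -0.97 ± 0.04 in miR-143DOX and -0.95 ± 0.04 in control (log2 difference, SD, n = 3 each), a distance between the groups smaller than the spread between their arrays.

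Probe set numbers gave the only other property of an unnamed row. Sorted by number, the 234873 rows fell into 28924 runs of consecutive numbers separated by gaps. Of 187915 pairs of neighbours inside a run that both had exactly 1 symbol, 99.9% shared it, against 5.72% of 16763 pairs across a gap. A run thus nearly always held the probe sets of 1 symbol, where symbols were given.

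By this measure the unnamed rows were of 3 kinds. A total of 3937 (21.5%) stood alone in a run of 1 row. Another 10265 (56.1%) lay in 1696 runs of 2 or more rows in which no row had a symbol, of which 75 held more than 20 rows and the longest 81. The other 4099 (22.4%) lay in 2588 mixed runs beside rows with a symbol, and 1919 of these runs held a single unnamed row. Median log2 levels were 4.98 for rows standing alone, 6.06 in unnamed runs and 5.64 in mixed runs. Rows with 1 symbol that stood alone had a median of 5.19.

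Levels of neighbouring unnamed rows went together more than their differences between groups did. Over 9648 neighbouring pairs inside a run, levels correlated at r = 0.70 and the differences between groups at r = 0.093, against 0.65 and 0.076 for rows with 1 symbol. Across a gap in the numbers, 2092 neighbouring unnamed pairs correlated at r = 0.36 in level and 0.141 in difference, the latter above that inside a run, and rows with 1 symbol at 0.16 and 0.0046. Rows with identical values on all arrays, described below, were not taken out of these pairs. Whether differences of separate measurements are more alike inside a run than across a gap was therefore not tested. These pairs come from the same 6 arrays, and neighbouring pairs share a row.

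In mixed runs the unnamed row was mostly the dimmer one. Of 2278 mixed runs with a single symbol, the unnamed rows had the lower mean level in 1533, with a median distance of -0.81 from the rows that carried the symbol (quartiles -2.08 and 0.45). The median distance lay between -0.83 and -0.70 on the 6 arrays, and binding strength, which can differ between probe sets of 1 transcript, was not measured.

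The mixed runs with the most unnamed rows included immune receptor genes and genes of large proteins. The run of the immunoglobulin heavy chain symbols (Igh and 8 others) held 58 unnamed rows of 116, at a mean level of 4.81. The run of the T cell receptor alpha symbols Tcra and A130082M07Rik held 32 of 42 at 4.67. Both mean levels lay below the median of all unnamed rows, though single unnamed rows reached 9.14 in the Igh run and 7.55 in the Tcra run. Among the genes of large proteins, the run of Spnb5, a spectrin gene, held 41 unnamed rows of 68 and that of Loxhd1 33 of 40. That of the collagen gene Col22a1 held 31 of 60 and that of the intestinal mucin gene Muc2 25 of 50. Their unnamed rows had mean levels of 5.72, 6.02, 6.79 and 5.20, so those of Spnb5 and Muc2 lay below that median too.

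Some unnamed rows in mixed runs were bright. The run of Ubr4, a ubiquitin ligase gene, held 24 unnamed rows of 131 at a mean of 8.20. In the run of Acad11, an acyl-CoA dehydrogenase gene, 20 of 22 rows were unnamed, at a mean of 10.8 (from 10.1 to 11.9), so most of the probe sets in that run are lost when rows are read by symbol. Unnamed rows in the 6 runs with a Mup symbol numbered 15, at a median level of 14.2 (8.80 to 15.01). Mup genes encode the major urinary proteins, pheromone carriers that the mouse liver secretes in large amounts. Runs with a symbol of a large ribosomal subunit protein (Rpl) numbered 45, with 89 unnamed rows at a median of 9.97, and those of a small subunit protein (Rps) numbered 17, with 34 unnamed rows at 10.0. In the 3 runs with Gapdh, the gene of a glycolytic enzyme, 4 unnamed rows had a median of 13.7. Rows that carry the symbol were far dimmer in some bright runs. Unnamed rows averaged 13.2 against 3.42 in the run of Gm12070, 12.5 against 3.20 in that of Rps2 and 13.5 against 6.17 in that of Mmp24. In the run of G6pc the levels were close, at 12.96 and 12.93. Whether an unnamed row reads the gene of its run was not tested.

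Differences between the groups were centred near 0 in the Mup and ribosomal runs. In Mup runs the log2 differences of unnamed rows, miR-143DOX minus control, ran from -0.34 to 0.21 with a median of -0.02. The brightest of these rows reached 15.1 on single arrays, where the highest deposited value of the series was 15.16, so they lay at the top of the scale, and whether the arrays could show a rise there was not tested. The row that carries the symbol in the run of Mup10, at a level of 10.9, had a difference of -0.92. Differences ran from -0.54 to 0.62 in Rpl runs with a median of 0.07, and from -0.67 to 0.32 in Rps runs with a median of 0.08. In Gapdh runs they ran from 0.18 to 0.29 with a median of 0.20. At an unadjusted p under 0.05, limma's moderated test marked 0 of 15 tested rows in Mup runs, 1 of 85 in Rpl runs, 1 of 33 in Rps runs and 0 of 4 in Gapdh runs, against 4.18% of all rows tested, and none of them passed 5% false discovery rate (FDR).

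The brightest unnamed rows came from the same stretch of numbers. Probe set 10513440, in the run of Mup10, measured 15.1, 15.1 and 15.1 in miR-143DOX replicates 1 to 3 and 14.5, 15.1 and 15.1 in control replicates 1 to 3 (log2). Probe sets 10513456, 10513474 and 10513506, each in a run with no symbol, had the same 6 values. Only control replicate 1 stood apart, and the groups overlapped. The difference was 0.21 (95% interval -0.33 to 0.74; limma adjusted p = 0.9995), and 0.02 without control replicate 1. Probe set 10513422, which shares its values with 1 other row, was next at a mean of 14.99, with a difference of 0.16 that turned to -0.02 without control replicate 1.

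Identical values on all 6 arrays were more common among unnamed rows. Of the 18301 rows, 1083 (5.92%) had the same 6 deposited values as at least 1 other row, against 0.512% of rows with 1 symbol and 24.4% of rows with several. Such rows give 1 measurement, whatever their number. They formed 400 sets, of which 290 held only unnamed rows (893 rows) and 110 also held rows with a symbol (190 unnamed rows). Among the latter, 40 unnamed rows had the values of rows of Sly, a gene of a multicopy family on the Y chromosome, at levels of 3.06 to 7.27, and 8 had those of rows that name 4 pancreatic amylase genes together (Amy2a1, Amy2a2, Amy2a5 and Amy2b), at levels of 2.56 to 11.7.

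The sets described next are the largest of those that held only unnamed rows. Sets without an unnamed row were not ranked. The largest held 50 rows, each alone in its run, spread from number 10345437 to 10607430. It measured 6.72, 6.41 and 6.82 in miR-143DOX replicates 1 to 3 and 6.93, 7.23 and 7.68 in control replicates 1 to 3, with no overlap between groups. Its difference was -0.63 with a standard error of 0.26 (limma unadjusted p = 0.0423, adjusted p = 0.9995). Sets of 33 and 23 rows, also each alone in its run, lay between numbers 10563938 and 10564156 at mean levels of 3.32 and 3.15, under the level at which rows were tested. A set of 18 rows in short unnamed runs was bright, at 14.38, 14.17 and 14.19 in miR-143DOX and 13.99, 14.10 and 13.92 in control. It did not overlap between groups, and its difference was 0.25 with a standard error of 0.19 (limma adjusted p = 0.9995). Of all rows tested, 8.85% did not overlap between groups.

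Taken as 1 class, unnamed rows varied less between arrays of a group than rows with 1 symbol, though not in mixed runs. The within-group SD of a row (pooled over both groups) had a median of 0.314 over unnamed rows and 0.378 over rows with 1 symbol. Among rows above the level filter the medians were 0.311 and 0.346, a ratio of 0.899. The distance lay at low levels. In the dimmest of 10 level bins of equal size the medians were 0.271 and 0.443, a ratio of 0.611, and the ratio rose from bin to bin to 1.01 in the ninth, with 0.934 in the brightest.

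Rows that stood alone in their run were the least variable, with or without a symbol. Their median SD was 0.175 for unnamed rows and 0.176 for rows with 1 symbol. In the dimmest bin it was 0.145 and 0.151, and in the fifth 0.200 and 0.171. Rows standing alone made up 21.5% of unnamed rows and 1.6% of rows with 1 symbol. For unnamed rows in longer runs the median SD in the dimmest bin was 0.367, below the 0.443 of all rows with 1 symbol. Over all levels the median SD of unnamed rows was 0.353 in unnamed runs and 0.428 in mixed runs. The latter lay above the 0.414 of rows with 1 symbol in mixed runs. How many oligonucleotides a row sums, which can set its SD, was not analysed here.

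**Figure D2:**
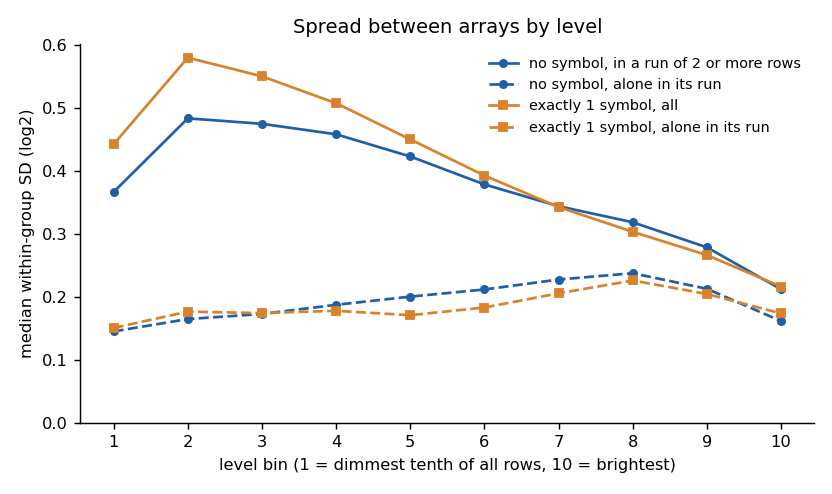
Median within-group SD in log2 units (vertical axis) over 10 bins of mean level, each with an equal number of all rows (horizontal axis, 1 the dimmest). Dashed lines, for rows alone in their run, stay between 0.145 and 0.238 for both classes, while solid lines rise to bin 2, then fall with level and meet at bin 7, at 0.344 for unnamed rows in longer runs (blue) and 0.343 for all rows with 1 symbol (orange).

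Single arrays stood apart for some rows. The 5 unnamed rows with the largest SD all had their highest value on the array of control replicate 1. Probe set 10400222 measured 14.5 there, against 3.58 and 8.07 in the other control mice and 6.21, 6.17 and 7.60 in miR-143DOX. Probe set 10515657 measured 14.6 there against 7.07 and 7.31 in the other control mice and 6.58, 6.27 and 6.31 in miR-143DOX, and probe set 10580216 14.4 there against 6.75 and 6.34 and, in miR-143DOX, 7.34, 6.34 and 7.08. Probe sets 10477508 and 10505900, the latter in the run of Mtap, had 8.89 and 9.49 there, with other values of 1.90 to 3.21 and 2.49 to 4.82, and were too dim on average to be tested.

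Values more than 4 log2 units above the median of the other arrays were found for 13 unnamed rows on control replicate 1, for 1 on miR-143DOX replicate 3 and for 0 on the other arrays. Among rows with 1 symbol there were 207 on control replicate 1 and at most 5 on any other array. The shares on control replicate 1 were 0.0710% of unnamed rows and 0.0976% of rows with 1 symbol. Without that array the difference of probe set 10400222 turned from -2.06 to 0.84, that of 10580216 from -2.26 to 0.37, and that of 10515657 stood at -0.81 in place of -3.27.

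The comparison of miR-143DOX with control asks which hepatocyte transcripts differ when miR-143 is induced. No unnamed probe set passed it. Of the 18301 rows, 11246 had a mean level above 5.07, the lowest 25% of all rows, and were tested. The other 7055 (38.5%, against 23.7% of rows with 1 symbol) were not. In limma's moderated test over all 176154 rows tested, 0 unnamed rows passed 5% FDR, with 430 at an unadjusted p under 0.05, and 0 rows of any class passed (background 0.0%). Simulated data of the same size had independent normal noise in each row, with the row SDs shrunk toward each other as in limma. Identical rows, related rows of a run and jumps on single arrays were not simulated. In the simulated sets the test recovered 0.4% of 2-fold, 53.2% of 4-fold and 93.2% of 8-fold changes. Thus 2-fold changes in a single row were mostly missed with 3 mice a group. Each simulated set mixed changes from 2-fold to 16-fold, and its large changes ease the FDR cut-off for the smaller ones. How often a lone 4-fold change would be found among unchanged rows was not simulated.

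The 430 rows were 3.82% of those tested, against a background of 4.18% of all rows and 4.24% of rows with 1 symbol. Of these, 153 (1.36% of those tested) were higher and 277 (2.46%) lower in miR-143DOX, where the background was 1.99% higher and 2.19% lower (2.05% and 2.18% of rows with 1 symbol). The higher share lay below the background and the lower share above it. With sets of identical unnamed rows counted once, 153 were higher (1.40%) and 225 lower (2.07%), and the lower share lay below the background too. The lower side was not stable to single arrays, with 163 lower and 173 higher without control replicate 3. Without miR-143DOX replicate 3 the numbers were 381 lower and 294 higher. The groups did not overlap for 417 rows on the higher and 509 on the lower side, 8.23% of those tested against a background of 8.85% (8.89% of rows with 1 symbol). Taken in both directions together, neither share stood above the background.

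The differences of unnamed rows were centred near 0. Over those tested the median difference was 0.01 (log2), with 5868 above 0, against 0.01 over rows with 1 symbol. The 5th and 95th percentiles were -0.63 and 0.53, against -0.61 and 0.61. A difference of more than 1 in either direction was found for 216 rows (1.92%), 79 higher and 137 lower, against 2.32% of rows with 1 symbol.

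Among unnamed rows that stood alone, the count of lower rows came mostly from 1 measurement. Of 1916 tested, 62 (3.24%) were lower and 0 higher at an unadjusted p under 0.05 in limma, against the background of 2.19% lower and 1.99% higher. Of the 62, 50 were the set of identical rows, and with such sets counted once 13 of 1796 were lower (0.724%), a share below the background. Among 1791 rows with 1 symbol that stood alone, 3 were lower (0.168%) and 0 higher. These counts depend on how the variance is estimated: with an intensity trend and a robust prior, 12 unnamed rows were lower and 5 higher. The 62 lower ones became 2 on leaving out control replicate 3, and also 2 on leaving out miR-143DOX replicate 2. They became 7 with miR-143DOX replicate 1 left out and 19 with control replicate 2 left out. Leaving out miR-143DOX replicate 3 gave 23 lower and 6 higher, and leaving out control replicate 1 gave 74 lower and 2 higher. The smallest p among them belonged to probe set 10544539. It measured 7.34, 7.19 and 7.25 in miR-143DOX replicates 1 to 3 and 8.58, 7.92 and 8.73 in control replicates 1 to 3, with no overlap, for a difference of -1.15 with a standard error of 0.26 (limma adjusted p = 0.9995).

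**Figure D3:**
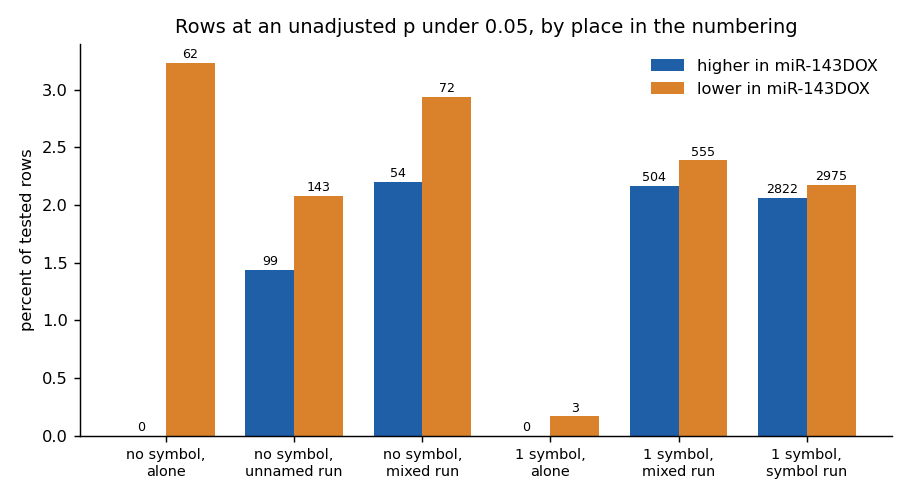
Percent of tested rows at an unadjusted limma p under 0.05 (vertical axis), higher (blue) or lower (orange) in miR-143DOX, by class and by place in the numbering (horizontal axis), with the number of rows above each bar. Unnamed rows alone in their run have 62 lower and 0 higher, of which 50 lower ones hold identical values.

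With the mean of each run as the value, 0 of 3168 tested runs of only unnamed rows passed 5% FDR in limma, and 0 of all 21693 runs. At an unadjusted p under 0.05 there were 27 higher and 161 lower, or 5.93% of these runs, against a background of 1.16% higher, 2.08% lower and 3.24% in all. Runs of only rows with symbols stood at 2.76%, and those among them with a single row at 2.89%. Unnamed runs of 2 or more rows stood at 4.04%. Runs of a single unnamed row, at 6.92%, held 14 of the higher and 130 of the lower ones. Their values are those of the rows standing alone, of which the fit over rows marked 0 higher and 62 lower, so these counts change with the features fitted beside them. With identical run means kept once and the fit run again, the lower ones numbered 107, and their share of the runs then left was not computed. The lower ones numbered 105 without control replicate 3. The higher ones rose in number to 114 when miR-143DOX replicate 3 was left out and to 45 when control replicate 1 was, and 11 were found with miR-143DOX replicate 2 left out. None of these counts carries a test of the class.

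Of the unnamed runs with 5 or more rows, the smallest p on the lower side was that of numbers 10557844 to 10557852, 9 rows. The run means were 7.66, 7.29 and 7.56 in miR-143DOX and 7.77, 8.10 and 8.23 in control, a difference of -0.53 with a standard error of 0.16, and 8 of the 9 rows lay below 0 (limma adjusted p = 0.999). In the run of numbers 10578747 to 10578756, the next by p, all 10 rows lay below 0, for a difference of -0.51 with a standard error of 0.17. On the higher side the smallest p was that of numbers 10560348 to 10560353, 6 rows, at 5.150, 5.002 and 4.914 in miR-143DOX against 4.580, 4.496 and 4.718 in control. Its difference was 0.42 with a standard error of 0.13, and 4 of the 6 rows lay above 0, from -0.41 to 1.38 over all 6. The run of numbers 10600902 to 10600910, given because all its rows lay on 1 side, had 9 of 9 above 0, at 6.33, 6.29 and 6.31 in miR-143DOX against 5.84, 6.26 and 5.48 in control, a difference of 0.45 with a standard error of 0.18. The groups did not overlap in these 4 runs, which were chosen by p or by the signs of their rows. The share of all runs without overlap was not counted.

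Among single rows, the 10 with the smallest unadjusted p on the higher side had differences of 0.98 to 2.44, with standard errors of 0.19 to 0.45, and the 10 on the lower side differences of -2.64 to -0.93, with standard errors of 0.20 to 0.52. All 20 were separate between the groups, as their choice by p nearly requires, and none passed 5% FDR (limma adjusted p = 0.9995 for each). Their levels were in the middle of the range, from 5.22 for 10579817 on the higher side to a little under 7.5 on the lower side. In 8 of the 20, 4 on each side, the mean of the dimmer group lay under the filter level of 5.07, so these rows were tested through their brighter group. Their dim values may hold background, and their differences are then not a measure of how far the RNA changed.

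On the higher side, probe set 10579817 had the smallest p. It measured 5.74, 5.88 and 5.83 in miR-143DOX replicates 1 to 3 and 4.67, 4.72 and 4.46 in control replicates 1 to 3. The difference was 1.20 (95% interval 0.75 to 1.65), against a control mean of 4.62, under the filter level. It is 1 of 10 rows of an unnamed run whose other 9 had a median difference of 0.15, from -0.35 to 0.71, and 5 of the 9 were above 0. Probe set 10533919 measured 7.02, 7.27 and 5.88 in miR-143DOX against 3.58, 4.48 and 4.79 in control, all 3 under the filter level, with a difference of 2.44 (1.38 to 3.49). The other 52 rows of its run had a median of -0.08.

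Other rows on the higher side lay in unnamed runs whose other rows had median differences between -0.13 and 0.31. Probe set 10466762, at 7.23, 7.55 and 7.24 against 4.80, 6.06 and 5.64, had a difference of 1.83, and 19 of the 24 other rows in its run were above 0. Probe set 10519920 had 1.89, with 18 of 25 other rows above 0. Probe sets 10588330, 10477244, 10345459 and 10354480 had 1.34, 1.07, 1.09 and 0.98. In mixed runs, probe set 10594352 stood beside 11 rows of Lbxcor1, a gene for a transcriptional corepressor, at a difference of 1.58 against their median of 0.12. Probe set 10469915 stood beside 15 rows of Nelf at 1.02 against a median of -0.13.

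**Figure D4:**
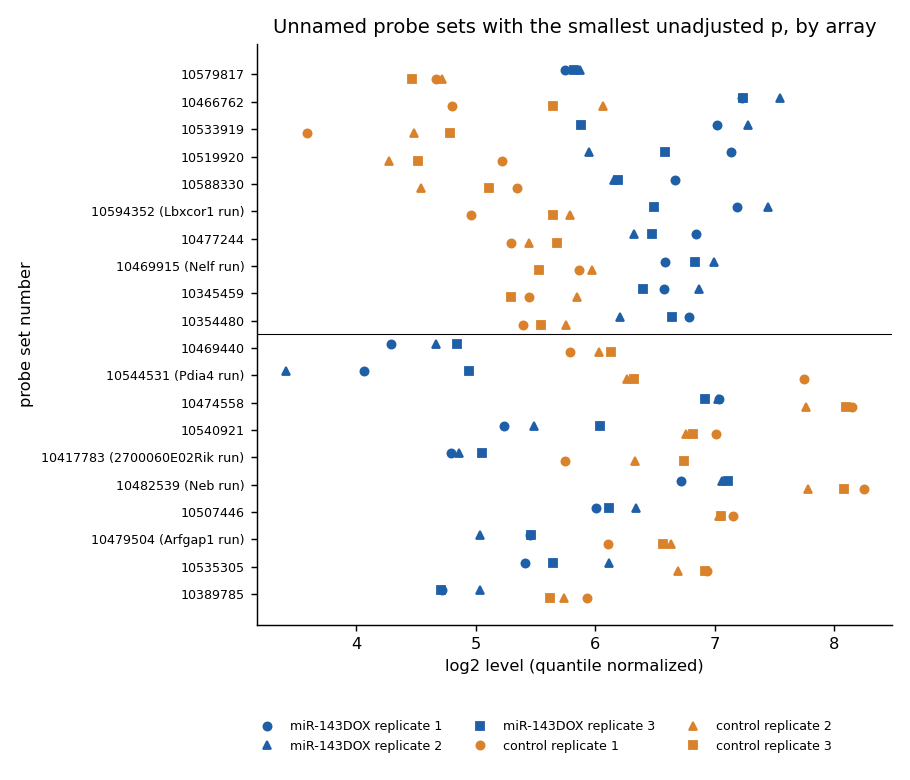
Log2 level on each array (horizontal axis) of the 20 unnamed probe sets with the smallest unadjusted p (vertical axis, by number), 10 higher above the line and 10 lower below it. Blue symbols are the 3 miR-143DOX mice and orange symbols the 3 control mice, and in each row the colours do not overlap.

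On the lower side, probe set 10469440 had the smallest p, at 4.29, 4.67 and 4.84 in miR-143DOX replicates 1 to 3 and 5.79, 6.03 and 6.13 in control replicates 1 to 3. The difference was -1.38 (95% interval -1.92 to -0.84), and the other 15 rows of its unnamed run had a median of 0.15. Probe set 10474558 measured 7.03, 7.02 and 6.91 against 8.15, 7.76 and 8.09, a difference of -1.01. Here the other 26 rows of the unnamed run, numbers 10474546 to 10474572, had a median of -0.30, with 20 of 26 below 0. The mean of that run was 7.01 ± 0.29 in miR-143DOX against 7.49 ± 0.08 in control (SD, n = 3 each).

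Probe set 10544531 lay in the run of Pdia4. Pdia4 encodes a disulfide isomerase that folds proteins in the endoplasmic reticulum. The unnamed row measured 4.06, 3.41 and 4.95 in miR-143DOX against 7.74, 6.27 and 6.32 in control, a difference of -2.64 (95% interval -3.85 to -1.43). All 3 miR-143DOX values lay under the filter level of 5.07. The 11 rows that carry the symbol were all below 0 as well, from -0.72 to -0.05 with a median of -0.23. They were read on the same 6 arrays, so their signs are not independent. With single arrays left out the difference of the unnamed row lay between -3.04 and -2.16.

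Probe set 10482539 lay in the run of Neb, the gene of the muscle protein nebulin, at 6.72, 7.06 and 7.11 against 8.24, 7.78 and 8.08. Its difference was -1.07, and 132 of the 157 other rows of that run were below 0, with a median of -0.39. In the remaining mixed runs, too, the other rows lay on both sides of 0. Probe set 10479504 had -1.12 in the run of Arfgap1, a regulator of vesicle coats, where the other 18 rows ran from -0.97 to 0.65 with a median of -0.08. Probe set 10417783 had -1.37 in that of 2700060E02Rik, where the other 7 ran from -0.28 to 0.16 with a median of -0.11. Probe sets 10540921, 10507446, 10535305 and 10389785, all in unnamed runs, had -1.27, -0.93, -1.12 and -0.94. The median of the other rows of their runs was above 0 in the first 3 and -0.11 in the last, a run of 2 rows.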

How the data were processed

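The authors deposited log2 probe set intensities of 6 arrays, 1 per mouse. The scale is taken as log2 from the values, 1.60 to 15.2. Partek is named, per the submitters' processing notes; background correction and summarization are not given in the sources used here. Dim rows may hold background, since no detection calls were at hand, and the number of arrays limits the precision. Values were quantile normalized, because upper percentiles differed between arrays (by 0.127 at the 75th and 0.135 at the 95th).

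Rows whose mean lay in the lowest 25% were not tested. The difference between groups was fitted per row in limma (version 3.58.1, R 4.3.3; moderated two-sided test with no covariate), and p-values were adjusted by Benjamini and Hochberg's method over all 176154 rows tested. Replicates are separate mice per the labels. Rows named are the 10 with the smallest p in each direction, the 5 brightest (ties by number) and the 5 with the largest SD; the symbols of mixed runs, the unnamed runs, the identical sets and probe set 10544539 were chosen after their values were seen. The rows and lists were chosen with earlier results of these data known. The steps were tested on 10 simulated sets with 200 changed rows each, where 16-fold changes were recovered at 98.0%.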

Additional observations from a re-analysis of the deposited data

How the results depend on the processing

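The absence of unnamed rows past 5% FDR held in all 14 alternatives. Unnamed rows at an unadjusted p under 0.05 numbered 153 higher and 277 lower; the higher ones were 297 without a filter on dim rows and 61 with the lowest 50% left out, where the lower ones were 155. With single arrays left out, the higher ones ran from 111 (without miR-143DOX replicate 2) to 294 (without miR-143DOX replicate 3), the lower ones from 163 (without control replicate 3) to 381 (without miR-143DOX replicate 3), and their share from 2.92% to 6.00%. With the replicate block there were 189 higher and 355 lower. The numbers were not taken to pair the mice, with correlations of deviations of 0.031, 0.037 and 0.098 for equal numbers, although each array correlated best with that of its own number. The SD ratio of 0.899 was 0.831 without a filter. The level gap of -0.95 moved by less than the spread between arrays in each alternative run, and so did the median difference of 0.01 (from -0.011 without miR-143DOX replicate 2 to 0.047 without miR-143DOX replicate 3). Of 372 differences of named rows under an alternative, 369 kept their sign, and 3 turned, each without control replicate 1. The rows named by smallest p, 10 on each side, were separate between the groups. Leaving out an array could therefore not turn their sign, and most of the 369 say little. With single arrays left out, the 3 that turned ran from -0.019 to 0.27 for probe set 10513422, from -4.63 to 0.84 for 10400222 and from -3.67 to 0.37 for 10580216. Keeping identical rows of any class once in the fit (224 lower) and averaging runs were added after seeing the data. With an intensity trend and a robust prior, 12 rows alone in their run were lower and 5 higher, in place of 62 and 0. For run means, array weights gave 85 higher, the replicate block 45, no filter 51 and the stricter filter 11, in place of 27.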
